A study of Mus musculus with 11 samples.

Results

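Gene expression was compared between 2 genotypes of mouse skin tumour that differ in oncogene and share the label Bap1 KO, on the C57BL/6 background: BRAF V600E Bap1 KO, set against GNA11 Q209L Bap1 KO. The members were chosen by genotype label, which put 9 of the 11 libraries of the series into the comparison: 5 of GNA11 Q209L Bap1 KO (GNA11/Bap1 KO below) and 4 of BRAF V600E Bap1 KO (BRAF/Bap1 KO below). The other 2 libraries, of the genotype GNA11 Q209L, entered the fit for the spread between libraries and are given as a reference. All were end-point skin tumours of a genetically engineered melanoma model. The labels give no age, sex, treatment, tumour site or litter, and neither the promoter behind the recombinase nor the exons of Bap1 that were removed. GNA11/Bap1 KO replicates 1 and 2 carry the same animal-like number with different tumour suffixes. They were kept as 2 libraries, and the result of summing them is given near the end. Nothing says that the other libraries came from separate animals, so the p-values measure the spread between these libraries, which may be partly technical.

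GNA11 encodes an alpha subunit of the Gq class of G proteins. The Q209L change keeps it bound to GTP, so that phospholipase C beta stays active and, through diacylglycerol and RasGRP exchange factors, feeds the RAS and RAF cascade; it is a hotspot of uveal melanoma and of blue naevi. BRAF V600E is a constitutively active RAF kinase, the most frequent oncogene of cutaneous melanoma, and enters the same cascade below RAS. Bap1 is a nuclear deubiquitinase that removes ubiquitin from histone H2A and is often lost in metastatic uveal melanoma. Melanocytes are marked by MITF, the transcription factor that drives pigment genes, while loss of MITF with gain of AXL and mesenchymal genes is a well described melanoma state.

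Counts of the human BRAF and GNA11 transgene sequences went with the oncogene labels. The human BRAF exon 15-18 sequence had 77, 81, 43 and 50 counts in BRAF/Bap1 KO replicates 1 to 4, and 1, 0, 0, 0 and 0 in GNA11/Bap1 KO replicates 1 to 5. The human GNA11-Q209L sequence had 120, 213, 319, 137 and 1005 counts in GNA11/Bap1 KO and 5, 1, 0 and 0 in BRAF/Bap1 KO. A further sequence, named hFLPe, did not follow these labels and differed within both groups. It had 1244, 659, 1, 3242 and 7563 counts in GNA11/Bap1 KO and 6618, 3353, 12 and 3987 in BRAF/Bap1 KO. The GNA11 Q209L libraries had 1 and 1. Its part in the differences below was not tested. Mouse Bap1, the gene labelled as knocked out in both groups, was still counted in all 9 libraries. It stood at 102, 129.8, 104, 102 and 170.1 CPM (counts scaled to a common library size with TMM factors) in GNA11/Bap1 KO and at 59.9, 57.6, 71.3 and 54.7 CPM in BRAF/Bap1 KO, and at 85.1 and 137 CPM in GNA11 Q209L. Bap1 was thus higher in every GNA11/Bap1 KO library than in any BRAF/Bap1 KO library, with a log2 difference of 1.00 ± 0.23 (SE, adjusted p = 0.00811). That call was lost when libraries were scaled by total counts alone (log2 0.58, adjusted p = 0.0579). Because the table counts the whole gene, these levels do not check the deletion. The table's first header block reads BAP1 F/F for all 9 libraries, but a repeated block at its end reads NA for BRAF/Bap1 KO replicates 2 and 4. Most list counts of passing genes that move by over 1.5 times without these 2 libraries are therefore given below. Counts of consistent list members also moved without both, and only some of those are given. Of the genes chosen by the naming rule, 29 lost their call without both. Without both, the adjusted p of Bap1 was 0.0774.

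Library totals, rounded, ran from 18338000 to 81035000 counts, and 3 counts correspond to 0.0337 to 0.166 CPM. The BRAF/Bap1 KO libraries differed from one another more than the GNA11/Bap1 KO libraries did: 73.71% of the genes tested kept a highest to lowest ratio of at most 4 among the 4 BRAF/Bap1 KO libraries, against 88.89% among the 5 GNA11/Bap1 KO libraries. Xist, which coats the inactive X chromosome, stood at 0.706, 0.995, 695, 0.428 and 1.42 CPM in GNA11/Bap1 KO and at 99.8, 0.92, 1224 and 0.262 CPM in BRAF/Bap1 KO, so both groups mix Xist-positive and Xist-negative libraries. The 5' bias line of the table's header, which gives no definition, reads 0.74 to 0.81 in BRAF/Bap1 KO and 0.82 to 0.85 in GNA11/Bap1 KO, without overlap, and 0.74 and 0.84 in GNA11 Q209L. Its part in the differences below was not tested. In such bulk samples, fewer cells of a type and less RNA per cell cannot be told apart.

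Of 17350 genes tested, 7146 (41.2%) passed at an adjusted p under 0.05. There were 2865 (16.5%) higher in GNA11/Bap1 KO and 4281 (24.7%) higher in BRAF/Bap1 KO, so 40.09% of those that passed were higher in GNA11/Bap1 KO. The 16.5% and 24.7% are the shares to set beside each list count below. Groups that did not overlap were found for 5524 genes (31.8%). Scaling by total counts alone moved the median log2 fold change of all genes by -0.38. It moved the share of passing genes that were higher in GNA11/Bap1 KO from 40.09% to 23.37%. A gene is called consistent below if it passed, its 2 groups did not overlap, and the highest of the 4 BRAF/Bap1 KO values was at most 4 times the lowest. By this definition 3847 genes (22.2% of those tested) were consistent, 2134 (12.3%) higher in GNA11/Bap1 KO and 1713 (9.87%) higher in BRAF/Bap1 KO. These are 74.49% and 40.01% of the genes that passed in each direction. They are the shares to set beside the counts of consistent list members below. Genes higher in BRAF/Bap1 KO had a median highest to lowest ratio of 4.11 among the 4 BRAF/Bap1 KO libraries, and genes higher in GNA11/Bap1 KO one of 1.79. A single library held more than 80% of the summed BRAF/Bap1 KO level of 417 genes that were higher there, and for 277 of these it was replicate 4. The median log2 fold change over all genes tested was -0.26 (positive values are higher in GNA11/Bap1 KO throughout). Without replicates 2 and 4, 1372 genes passed higher in GNA11/Bap1 KO and 2199 higher in BRAF/Bap1 KO.

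**Figure D1:**
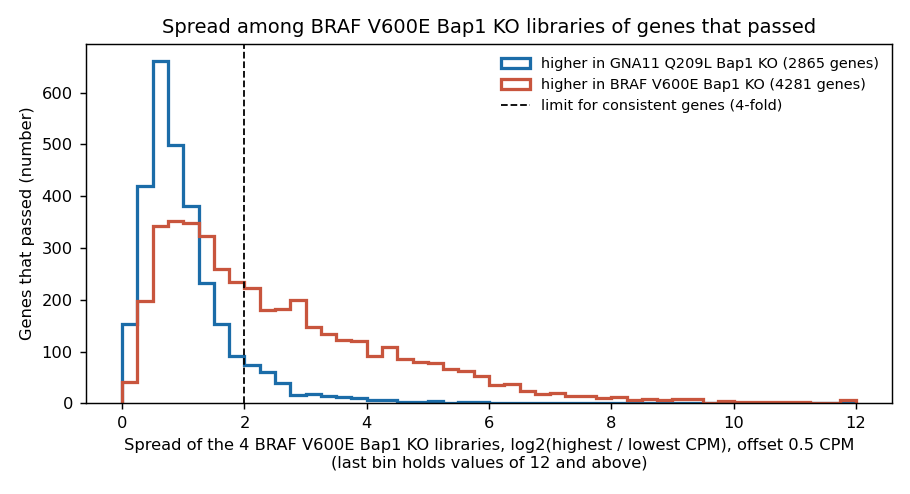
Number of genes that passed (vertical axis) by the log2 ratio of the highest to the lowest CPM among the 4 BRAF V600E Bap1 KO libraries (horizontal axis, offset 0.5 CPM), for the 2865 genes higher in GNA11 Q209L Bap1 KO and the 4281 higher in BRAF V600E Bap1 KO. The dashed line is the limit of 4-fold for consistent genes; the genes higher in BRAF V600E Bap1 KO run far to its right.

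Pigment cell genes were abundant in GNA11/Bap1 KO and, as a list, far lower in BRAF/Bap1 KO. The list summed to 96890 to 132500 CPM in GNA11/Bap1 KO and to 229, 444, 896 and 825 CPM in BRAF/Bap1 KO. Of 22 melanocyte genes tested, 19 rose in GNA11/Bap1 KO and 1, the transcription factor Sox5 (a call lost whichever single library but BRAF/Bap1 KO replicate 2 was left out), was higher in BRAF/Bap1 KO, with a median log2 fold change of 8.08 against -0.26 over all genes. Mitf, the lineage regulator, stood at 639, 359, 853, 1200 and 546 CPM in GNA11/Bap1 KO and at 31.2, 34, 24.9 and 44.2 CPM in BRAF/Bap1 KO. The groups were far apart and the BRAF/Bap1 KO libraries close to one another, and the log2 fold change was 4.42 ± 0.40 (SE, adjusted p = 0.000142). Tspan10, a tetraspanin of pigment cells, had 671, 1542, 947, 596 and 1032 CPM in GNA11/Bap1 KO and under 1 CPM in every BRAF/Bap1 KO library (0.225, 0.852, 0.731 and 0.918). The difference was 10.48 ± 0.64 (SE, adjusted p = 3.19e-05) on the log2 scale. The melanosomal transporters Oca2 (log2 fold change 9.49 ± 0.64 (SE, adjusted p = 3.35e-05)) and Slc24a5 (7.81 ± 0.51 (SE, adjusted p = 3.35e-05)) and the ocular albinism receptor Gpr143 (8.35 ± 0.56 (SE, adjusted p = 3.35e-05)) rose as well. Oca2 lay at 875 to 1140 CPM in GNA11/Bap1 KO against 0.416 to 2.67 CPM in BRAF/Bap1 KO. Of the 19 genes 7 were consistent, against 74.49% of all genes that passed higher in GNA11/Bap1 KO. The median highest to lowest ratio among the BRAF/Bap1 KO libraries was 5.98 for the 22 genes and 1.79 for all genes that passed higher in GNA11/Bap1 KO.

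The defining pigment genes are named here after their values were seen, so they describe the BRAF/Bap1 KO tumours and cannot check their melanoma label. Pmel, the melanosome fibril protein, stood at 3.66, 21.2, 20.6 and 25.9 CPM there and at 18380 to 53520 CPM in GNA11/Bap1 KO. Tyr, tyrosinase, the first enzyme of melanin synthesis, stood at 1.56, 1.64, 5.5 and 10.7 CPM there against 1634 to 4039 CPM. Dct, a further enzyme of the same pathway, stood at 5.37, 17, 31 and 52.2 CPM there against 22820 to 38840 CPM. None of the 3 was at 0 in a BRAF/Bap1 KO library, and all were lowest in replicate 1. Tyr and Dct were highest in replicates 3 and 4, which also had the highest keratinocyte list (given below). The part of that tissue in these levels was not tested. Sox10, a neural crest and melanocyte factor, divided the BRAF/Bap1 KO libraries. It stood at 1.93, 3.58, 533 and 232 CPM in replicates 1 to 4, against 936, 2103, 1077, 812 and 1316 CPM in GNA11/Bap1 KO. All 5 GNA11/Bap1 KO values exceeded the 4 others, yet the difference did not pass with this spread, at 2.70 ± 1.30 (SE, adjusted p = 0.116). It passed with DESeq2 (adjusted p = 0.0253) and with limma voom (0.0197).

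The genes with the widest gap between the groups, pigment genes left out, included ion channels, receptors and enzymes. The gap is the log2 ratio of the lowest value of the higher group to the highest value of the lower group. Kcnj13, an inwardly rectifying potassium channel, stood at 374, 558, 174, 622 and 318 CPM in GNA11/Bap1 KO and at 0.0787, 0.375, 0.104 and 0.0437 CPM in BRAF/Bap1 KO. Its gap was 7.64 and its log2 fold change 11.42 ± 0.83 (SE, adjusted p = 4.78e-05). Chsy3, a chondroitin sulphate synthase, stood at 331, 339, 162, 384 and 457 CPM and at 1.61, 0.613, 1.53 and 1.18 CPM, with a log2 difference of 8.07 ± 0.49 (SE, adjusted p = 3.19e-05). Syt9, a synaptotagmin of regulated secretion, was nearly constant in GNA11/Bap1 KO, at 123, 128, 156, 152 and 118 CPM, against 0.0899, 0.204, 0.766 and 1.35 CPM in BRAF/Bap1 KO (7.88 ± 0.78 (SE, adjusted p = 0.000193)). For these 3 genes GNA11 Q209L without the Bap1 label also stood high, with 296 and 125 CPM of Kcnj13, 191 and 292 of Chsy3 and 124 and 128 of Syt9.

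Other genes of this group stood lower in GNA11 Q209L than in GNA11/Bap1 KO, a difference that was not tested here. Grin2c, a subunit of NMDA glutamate receptors, stood at 75.8, 118, 41.1, 58.8 and 64.8 CPM in GNA11/Bap1 KO, at 0.0899, 0.136, 0.279 and 0.394 CPM in BRAF/Bap1 KO and at 4.71 and 15.6 CPM in GNA11 Q209L (8.39 ± 0.68 (SE, adjusted p = 7.86e-05) between the 2 knockout groups). Pde11a, a cyclic nucleotide phosphodiesterase, followed this order with 123, 79.8, 161, 139 and 103, 0.483, 0.988, 1.74 and 1.4, and 8.09 and 17.6 CPM, and a log2 difference of 6.73 ± 0.50 (SE, adjusted p = 5e-05). Wasf3, an actin regulator, had 29.5 and 0.49 CPM in the GNA11 Q209L libraries, so these did not match each other. In the knockout groups it stood at 29.8 to 61 CPM and 0.0449 to 1.39 CPM (6.36 ± 1.33 (SE, adjusted p = 0.00533)).

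Met, the receptor of hepatocyte growth factor, was the receptor tyrosine kinase that went the other way from its class. It stood at 1149, 567, 728, 1497 and 948 CPM in GNA11/Bap1 KO and at 34.3, 16.4, 11.7 and 21.1 CPM in BRAF/Bap1 KO, a log2 difference of 5.55 ± 0.47 (SE, adjusted p = 9.11e-05). Nr4a3, an orphan nuclear receptor, differed little within each group, with 520.5, 545, 848, 494 and 727 CPM in GNA11/Bap1 KO and 11.1, 11.2, 8.88 and 8.83 CPM in BRAF/Bap1 KO (5.97 ± 0.40 (SE, adjusted p = 3.35e-05)). Myo7a, an unconventional myosin that moves melanosomes in the retinal pigment epithelium, stood at 723, 1055, 789, 699 and 819.7 CPM and at 26.1, 23.1, 50.4 and 20.3 CPM (4.77 ± 0.36 (SE, adjusted p = 5.28e-05)). Ppm1h, a protein phosphatase, rose with a log2 difference of 4.41 ± 0.37 (SE, adjusted p = 9.11e-05), Tmem51 with one of 4.95 ± 0.40 (SE, adjusted p = 8.56e-05) and Aph1c, a gamma-secretase subunit, with one of 4.81 ± 0.40 (SE, adjusted p = 9.11e-05). Eif2c5 (9.04 ± 0.92 (SE, adjusted p = 0.000234)) had 19 to 24.9 CPM in GNA11/Bap1 KO and no count in BRAF/Bap1 KO replicates 1 and 2. Mrgprx2, a Mas-related receptor, had a log2 difference of 6.34 ± 0.70 (SE, adjusted p = 0.000297), and its reads could be split with near-identical family members.

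**Figure D2:**
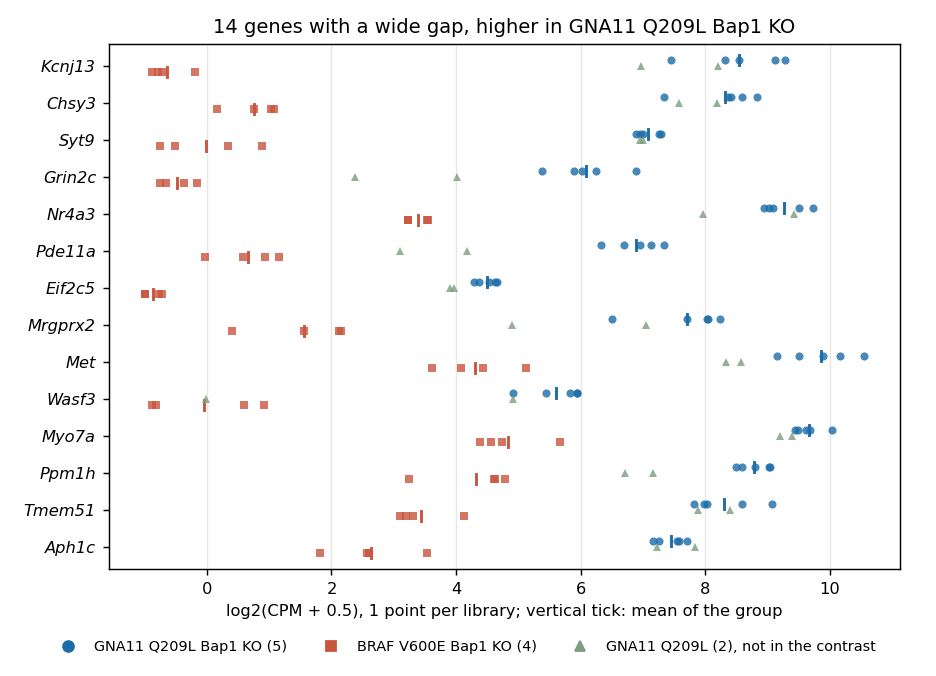
Expression as log2(CPM + 0.5) (horizontal axis) of 14 of the 15 genes with the widest gap that were higher in GNA11 Q209L Bap1 KO (vertical axis), 1 point per library and a tick at each group's mean. The 5 GNA11 Q209L Bap1 KO libraries lie to the right of the 4 BRAF V600E Bap1 KO libraries for all 14; both GNA11 Q209L libraries lie between the groups for Grin2c, Pde11a, Ppm1h, Met, Myo7a and Eif2c5.

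Promoter sequences of the genes that differed were searched for 3 short motifs, given here as a description of the consistent genes. TCANGTG is an E-box form known for MITF family factors, TGANTCA for AP-1 and GGAATG for TEAD factors. They were searched on both strands in windows of 300 bases (250 before to 50 after the start, RefSeq, GRCm38.p6), which matched 12606 of the 17350 genes, some of them with several starts. TCANGTG was in 17.54% of the 2053 promoters of consistent genes higher in GNA11/Bap1 KO, in 10.1% of the 1653 of consistent genes higher in BRAF/Bap1 KO and in 13.09% of the 15954 of all genes tested. TGANTCA was in 4.48%, 6.71% and 6.02%, and GGAATG in 13.15%, 10.95% and 12.7%, in the same order. These shares are descriptions without a test, and a match is not a binding site. Among the genes ranked by gap on the GNA11 side, which leave out pigment genes, Kcnj13, Myo7a, Ppm1h and Tmem51 had a promoter with TCANGTG. Promoters of the pigment genes named above were not looked up singly. Those of Kcnj13 (chr1:87394680-87394979, minus strand) and Myo7a (chr7:98109199-98109498, minus strand) are shown because they have the widest gaps among these 4. Capitals mark the motif as read on the minus-strand gene, CACATGA, the reverse complement of TCATGTG, 112 and 110 bases before the start.
Kcnj13: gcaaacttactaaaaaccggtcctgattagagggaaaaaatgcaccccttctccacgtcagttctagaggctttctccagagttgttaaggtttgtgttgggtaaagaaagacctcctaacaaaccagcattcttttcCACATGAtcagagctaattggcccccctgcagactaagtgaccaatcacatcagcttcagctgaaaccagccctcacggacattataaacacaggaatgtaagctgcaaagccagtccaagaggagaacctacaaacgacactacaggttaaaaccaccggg
Myo7a: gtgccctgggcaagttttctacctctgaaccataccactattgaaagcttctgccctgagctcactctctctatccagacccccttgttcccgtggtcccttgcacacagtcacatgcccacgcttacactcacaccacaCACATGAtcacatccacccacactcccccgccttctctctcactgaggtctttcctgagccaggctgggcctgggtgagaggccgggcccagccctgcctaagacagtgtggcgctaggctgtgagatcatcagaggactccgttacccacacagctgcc

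Genes of organelles related to the melanosome were higher in GNA11/Bap1 KO as well, with the lysosome list the most even. Of 30 lysosome and vacuolar ATPase genes, 21 rose, all 21 consistently, and 2 were higher in BRAF/Bap1 KO (Ctsl, a cathepsin, and Tfec, a relative of MITF), a count that ran from 0 to 2 with each library left out. The median was 1.62. The proton pump subunit Atp6v0a1 stood at 820.0, 1335, 1213, 673 and 1151 CPM in GNA11/Bap1 KO and at 69, 29.8, 99.3 and 82.3 CPM in BRAF/Bap1 KO (3.89 ± 0.44 (SE, adjusted p = 0.000352)). The pump subunits Atp6v1b2 (2.56 ± 0.29 (SE, adjusted p = 0.000358)), Atp6v0d1 (2.32 ± 0.29 (SE, adjusted p = 0.000559)) and Atp6v1h (1.85 ± 0.20 (SE, adjusted p = 0.000258)) moved less. Every library of GNA11/Bap1 KO was above every one of BRAF/Bap1 KO for all 4 pump subunits. The melanosome biogenesis list had 13 of 28 genes higher in GNA11/Bap1 KO and 1 higher in BRAF/Bap1 KO (median 0.82). Rab38, a small GTPase of melanosome cargo transport, lay at 323 to 516 CPM in GNA11/Bap1 KO against 2.1 to 14.5 CPM in BRAF/Bap1 KO (5.64 ± 0.62 (SE, adjusted p = 0.000294)). Myo5a, the motor that carries melanosomes on actin, followed with 3.25 ± 0.38 (SE, adjusted p = 0.000393), and Hps4 (1.48 ± 0.21 (SE, adjusted p = 0.000926)) and the adaptor subunit Ap3d1 (1.42 ± 0.22 (SE, adjusted p = 0.0015)) changed less. With total counts alone, 4 genes of this list instead of 1 passed higher in BRAF/Bap1 KO, and the 1 was lost whichever single library but BRAF/Bap1 KO replicate 3 or 4 was left out.

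Respiratory chain genes were modestly higher in GNA11/Bap1 KO. Of 28 oxidative phosphorylation genes 17 rose, 16 consistently, and none passed in the other direction (median 0.84). Ndufa9, of complex I, stood at 107, 193, 108, 88.8 and 149 CPM in GNA11/Bap1 KO and at 37.7, 33, 61.5 and 62.6 CPM in BRAF/Bap1 KO (1.41 ± 0.30 (SE, adjusted p = 0.0056)). Ndufv1 (1.41 ± 0.34 (SE, adjusted p = 0.00938)), Sdhc of complex II (1.12 ± 0.26 (SE, adjusted p = 0.00825)) and Cox5b of complex IV (1.08 ± 0.25 (SE, adjusted p = 0.00862)) were of like size. GNA11/Bap1 KO replicate 2 was the highest library for these 4 genes. This count depended on the scaling: with total counts alone 7 genes rose and the adjusted p of Cox5b was 0.0513, and without BRAF/Bap1 KO replicates 2 and 4, 8 rose. Of 27 hypoxia and glycolysis genes 7 rose, 3 of them consistently, beside 16.5% of all genes. None passed in the other direction (median 0.87). Examples are the glycolytic enzymes Tpi1 (2.28 ± 0.54 (SE, adjusted p = 0.00921)), Hk1 (2.43 ± 0.59 (SE, adjusted p = 0.00964)), Aldoa (2.39 ± 0.58 (SE, adjusted p = 0.01)) and Pfkl (2.93 ± 0.73 (SE, adjusted p = 0.0112)). Without BRAF/Bap1 KO replicate 1, which had the highest level of the 4 for Tpi1 (421, 243, 133 and 160.0 CPM), 12 genes rose, and 13 did with DESeq2 and 12 with limma voom on all libraries. Without BRAF/Bap1 KO replicates 2 and 4 together 1 rose.

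On the other side, genes that were high in all 4 BRAF/Bap1 KO libraries and far lower in GNA11/Bap1 KO included matrix, adhesion and developmental signalling genes. Ank3, the scaffold protein ankyrin-G, had the widest gap, with 222, 65.9, 114 and 82.3 CPM in BRAF/Bap1 KO and 1.25, 0.664, 0.811, 0.428 and 0.38 CPM in GNA11/Bap1 KO (-7.44 ± 0.60 (SE, adjusted p = 7.86e-05)). Itgbl1, an integrin beta-like secreted protein, stood at 196, 168, 78.1 and 63.5 CPM and at 1.3, 0.221, 0.595, 0.143 and 0.328 CPM (-7.96 ± 0.98 (SE, adjusted p = 0.000556)). Scara5, a ferritin receptor, stood at 60.1, 83, 47.5 and 79.7 CPM and at 0.326, 0.0553, 1.08, 0.428 and 0.311 CPM (-7.27 ± 0.74 (SE, adjusted p = 0.000234)). The highest value of the 3 in any GNA11/Bap1 KO library was 1.30 CPM, of Itgbl1. Acpp, an acid phosphatase, had a log2 difference of -6.92 ± 0.85 (SE, adjusted p = 0.000546), Anks1b of -7.19 ± 0.67 (SE, adjusted p = 0.000146), Itm2a of -5.79 ± 0.68 (SE, adjusted p = 0.000423) and Penk, the enkephalin precursor, of -7.20 ± 0.90 (SE, adjusted p = 0.000559).

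Developmental signalling genes formed a part of these. Apcdd1, an inhibitor of Wnt signalling, stood at 36.8, 71.6, 49.1 and 79.9 CPM in BRAF/Bap1 KO and at 1.85, 0.332, 0.162, 2.48 and 0.415 CPM in GNA11/Bap1 KO (-5.83 ± 0.80 (SE, adjusted p = 0.000853)). Bmp7, a bone morphogenetic protein, stood at 17.4, 28.8, 30.9 and 63.3 CPM and at 0.977, 1.27, 0.108, 0.238 and 0.0346 CPM (-6.10 ± 0.98 (SE, adjusted p = 0.00169)). Gli2, a transcription factor of the hedgehog pathway, ran from 13.7 to 28 CPM in BRAF/Bap1 KO and from 0.363 to 0.977 CPM in GNA11/Bap1 KO (-5.22 ± 0.56 (SE, adjusted p = 0.000279)). For each of these the groups were apart, and the BRAF/Bap1 KO libraries differed by at most 4-fold. Pdzrn3, a ubiquitin ligase, had a log2 difference of -4.89 ± 0.47 (SE, adjusted p = 0.000183). Of the 15 genes, Itgbl1, Cma1, Acpp, Anks1b, Itm2a, Pdzrn3 and Gli2 had a promoter in the RefSeq table, and none of these held the letters TGANTCA.

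Matrix genes were among them. Mgp, the matrix Gla protein that binds calcium, stood at 995, 1721, 616 and 466 CPM in BRAF/Bap1 KO and at 10.1, 11.2, 13.9, 21 and 4.01 CPM in GNA11/Bap1 KO (-6.30 ± 0.67 (SE, adjusted p = 0.000265)). Dcn, the proteoglycan decorin, stood at 642, 540.5, 1849 and 1560 CPM and at 50.2, 26.4, 14.2, 33.7 and 3.85 CPM (-5.48 ± 0.78 (SE, adjusted p = 0.000968)). The 2 GNA11 Q209L libraries, with 104 and 23.8 CPM of Mgp and 645 and 182 CPM of Dcn, both stood above every GNA11/Bap1 KO library. Of 24 fibroblast and matrix genes 20 rose in BRAF/Bap1 KO and none passed in the other direction, with a median of -2.90, and 5 of the 20 were consistent. The summed level of the list was 8314, 6782, 34740 and 24400 CPM in BRAF/Bap1 KO replicates 1 to 4 and 2686 to 6408 CPM in GNA11/Bap1 KO. Pdgfra, a receptor of fibroblasts and mesenchymal cells, ran the other way within the group, at 1181, 764, 145 and 102 CPM (-6.43 ± 1.24 (SE, adjusted p = 0.00379)), while Fap, a fibroblast protease, was higher in replicates 3 and 4, at 6.65, 11.9, 54 and 34.1 CPM (-4.13 ± 0.84 (SE, adjusted p = 0.00476)). Thy1, a surface glycoprotein, had 840.4, 1072, 525 and 177 CPM (-4.94 ± 0.57 (SE, adjusted p = 0.000382)). The part of fibroblasts in the results on the BRAF/Bap1 KO side was not tested.

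**Figure D3:**
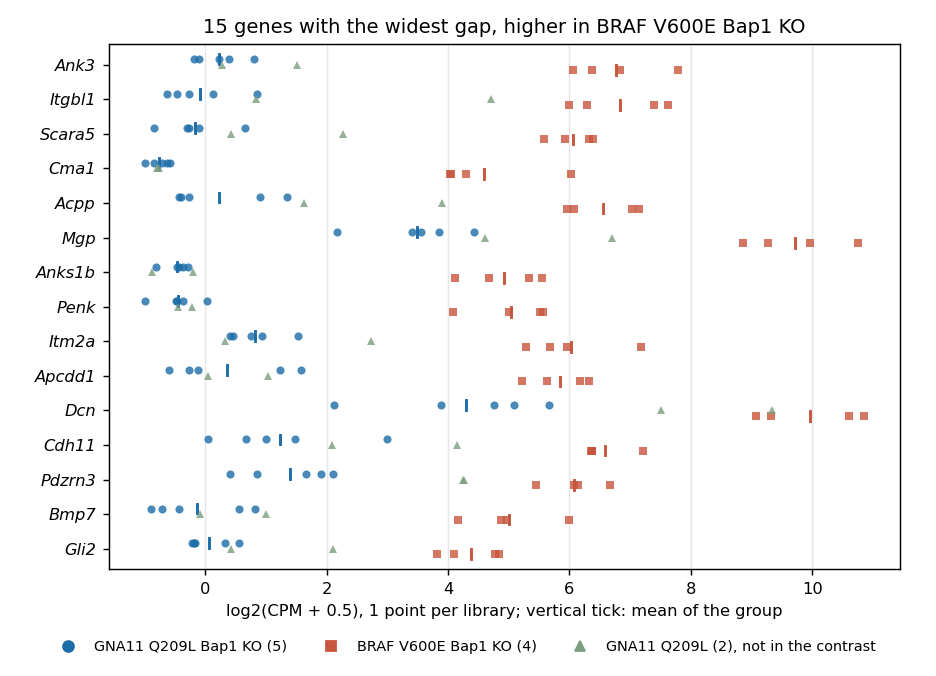
Expression as log2(CPM + 0.5) (horizontal axis) of the 15 genes with the widest gap that were higher in BRAF V600E Bap1 KO (vertical axis), 1 point per library and a tick at each group's mean. The 4 BRAF V600E Bap1 KO libraries lie to the right of the 5 GNA11 Q209L Bap1 KO libraries for all 15, and 1 GNA11 Q209L library lies among them for Dcn.

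Genes of the neural crest and of dedifferentiated melanoma were higher in BRAF/Bap1 KO. Of 24 genes 16 rose there, 6 consistently, and none passed in the other direction (median -3.41). Axl, a receptor tyrosine kinase of the melanoma state with low MITF, stood at 1237, 657, 476 and 343 CPM in BRAF/Bap1 KO and at 60.6, 50.5, 55.2, 38.5 and 17.4 CPM in GNA11/Bap1 KO (-3.93 ± 0.51 (SE, adjusted p = 0.000679)). Ror2, a receptor of Wnt5a, was even across the 4 libraries at 11.9, 22.2, 9.82 and 11.2 CPM, against 0.238 to 1.03 CPM in GNA11/Bap1 KO (-4.63 ± 0.49 (SE, adjusted p = 0.000265)). Sox2, a stem cell transcription factor, was present in all 4 libraries, at 201, 45.1, 23.5 and 21.1 CPM, and at most 0.38 CPM in GNA11/Bap1 KO (-9.20 ± 1.13 (SE, adjusted p = 0.000544)). Foxd3, a neural crest factor named here after its value was seen, was split like Sox10, with 0.135, 1.4, 92 and 35.3 CPM in BRAF/Bap1 KO, and did not pass (log2 fold change 0.19, adjusted p = 0.904).

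The mesenchymal factors were higher in BRAF/Bap1 KO, most of all in replicates 1 and 2. Prrx1, a homeobox factor of mesenchyme, stood at 764, 594, 193 and 118 CPM in BRAF/Bap1 KO and at 13.3, 3.21, 8.82, 5.38 and 4.84 CPM in GNA11/Bap1 KO (-5.88 ± 0.66 (SE, adjusted p = 0.000326)). Twist1 stood at 168, 89.1, 24.1 and 17.4 CPM and at 1.63, 0.719, 0.487, 0.905 and 0.743 CPM (-6.38 ± 0.85 (SE, adjusted p = 0.000764)), and Snai1, a repressor of E-cadherin, at 76.4, 24.9, 15.8 and 9.75 CPM and 2.55, 2.43, 2.49, 1.05 and 2.42 CPM (-3.86 ± 0.59 (SE, adjusted p = 0.00134)). All 3 were highest in replicate 1 and lowest in replicate 4, and none overlapped with GNA11/Bap1 KO. Cdh11, a mesenchymal cadherin, was even instead, at 82.8, 81.8, 147 and 82.8 CPM (-5.28 ± 0.79 (SE, adjusted p = 0.00121)). In the list of the epithelial and mesenchymal switch, 10 of 19 genes rose in BRAF/Bap1 KO and 1 in GNA11/Bap1 KO, 0 without BRAF/Bap1 KO replicates 2 and 4 (median -2.67). Of the 10 genes 1 was consistent.

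Receptor tyrosine kinases and their ligands followed, in a list that shares 7 genes, Axl among them, with other lists. Of 26 genes 15 rose in BRAF/Bap1 KO, 3 of them consistently, and Met alone rose in GNA11/Bap1 KO (median -3.81). Without BRAF/Bap1 KO replicates 2 and 4, 16 rose in BRAF/Bap1 KO, 8 of them consistently. Ddr2, a collagen receptor, stood at 538, 357, 191 and 133 CPM in BRAF/Bap1 KO and at 8.58, 7.08, 7.68, 7.43 and 5.58 CPM in GNA11/Bap1 KO (-5.39 ± 0.49 (SE, adjusted p = 0.00014)). Fgfr1, a fibroblast growth factor receptor, stood at 731, 746, 275 and 171 CPM and at 31.1, 23.4, 39.9, 28 and 28.8 CPM (-3.99 ± 0.44 (SE, adjusted p = 0.000294)). Both were highest in replicates 1 and 2. Egfr, the epidermal growth factor receptor, went the other way, at 39, 26.7, 75.6 and 140.3 CPM in BRAF/Bap1 KO and 8.47, 8.4, 3.14, 3.67 and 2.59 CPM in GNA11/Bap1 KO (-3.75 ± 0.60 (SE, adjusted p = 0.00168)). It was highest in replicates 3 and 4, which also had the highest keratinocyte list (given below), and the part of that tissue in Egfr was not tested.

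In the pathway that carries the GNA11 signal, Rasgrp3 and Plcb4 differed from their relatives. Rasgrp3, the RAS exchange factor that diacylglycerol activates, stood at 662, 519, 393, 1097 and 546 CPM in GNA11/Bap1 KO and at 3.31, 4.91, 8.01 and 15.9 CPM in BRAF/Bap1 KO (6.33 ± 0.60 (SE, adjusted p = 0.000172)). GNA11 Q209L lay between, at 206 and 131 CPM. Rasgrp1 went in the opposite direction, at 0.489, 0.498, 0.595, 0.524 and 0.242 CPM in GNA11/Bap1 KO and 7.04, 9.92, 10.9 and 19.9 CPM in BRAF/Bap1 KO (-4.67 ± 0.63 (SE, adjusted p = 0.000768)). Of 25 genes of the list, 5 rose in GNA11/Bap1 KO (Gna11, Gnaq, Plcb4, Rasgrp3 and the protein kinase C gene Prkce) and 9 in BRAF/Bap1 KO (Gna14, Plcb1, Rasgrp1, Rasgrp4, Prkcb, Prkch, Rgs2, Cysltr2 and Ednra), with a median of -0.64. The 5 became 3 without BRAF/Bap1 KO replicate 2 and without its replicates 2 and 4. Several of the 9 are genes that leukocytes also use, and leukocyte lists differed between the groups too, as given below; their part was not tested.

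The G protein genes themselves differed by smaller amounts. Mouse Gna11 stood at 229.6, 524, 272, 200.0 and 376 CPM in GNA11/Bap1 KO and at 188, 88.5, 87.5 and 73.9 CPM in BRAF/Bap1 KO (1.55 ± 0.45 (SE, adjusted p = 0.0199)), where replicate 4 of the first group and replicate 1 of the second nearly met. The human GNA11-Q209L counts given above went with it, and their part in it was not tested. The call was lost without replicate 2 (adjusted p = 0.0503) or without replicate 4 (0.0512) of BRAF/Bap1 KO. Gnaq, its close relative, stood at 140.4, 106, 146, 148 and 117 CPM and at 83.6, 75.9, 89.6 and 90.4 CPM (0.63 ± 0.17 (SE, adjusted p = 0.0151)), and lost the call with total counts alone (0.323). Gna14, a further Gq class subunit, was low in GNA11/Bap1 KO (0.166 to 1.08 CPM) and uneven in BRAF/Bap1 KO, at 2.58, 28.2, 10.2 and 25.5 CPM (-4.43 ± 0.79 (SE, adjusted p = 0.00278)). Ednra, an endothelin receptor that couples to Gq, was -2.91 ± 0.42 (SE, adjusted p = 0.00105).

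In the kinase cascade itself genes passed in both directions, and mouse Braf did not pass. Braf stood at 49.7, 30.4, 63.7, 47.2 and 33 CPM in GNA11/Bap1 KO and at 45.4, 49.2, 74.4 and 59.7 CPM in BRAF/Bap1 KO, with overlapping groups (-0.35 ± 0.26 (SE, adjusted p = 0.299)). In the list of RAF, MEK and ERK kinases and scaffolds, 5 of 17 genes rose in GNA11/Bap1 KO (Map2k1, Map2k2, Mapk3, Grb2 and Nf1) and 2 in BRAF/Bap1 KO (Nras and Rasa1). The shares over all genes were 16.5% and 24.7%. Mapk3, which encodes ERK1, was 1.85 ± 0.35 (SE, adjusted p = 0.00359), and Nf1, a RAS inhibitor, was 1.29 ± 0.22 (SE, adjusted p = 0.00222). Nras was -0.73 ± 0.16 (SE, adjusted p = 0.00616), and Rasa1, a further RAS inhibitor, stood at 466, 191, 86 and 85 CPM in BRAF/Bap1 KO against 26.9, 11.7, 27.6, 31.1 and 23.8 CPM (-3.10 ± 0.58 (SE, adjusted p = 0.0034)), with replicate 1 far above the others. The list's median of 0.05 changed sign with total counts alone (-0.32, with 3 and 4 genes passing). Without BRAF/Bap1 KO replicates 2 and 4, 3 genes rose in GNA11/Bap1 KO, and with DESeq2 4 rose in BRAF/Bap1 KO.

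Transcripts used as readouts of the cascade did not move as 1 block. Dusp6, an ERK phosphatase that ERK induces, stood at 393, 549, 149, 480.1 and 295 CPM in GNA11/Bap1 KO and at 315, 128, 206 and 136 CPM in BRAF/Bap1 KO. The groups overlapped and the difference of 0.93 ± 0.41 (SE, adjusted p = 0.0878) did not pass; it passed without BRAF/Bap1 KO replicate 1 (0.0355) or GNA11/Bap1 KO replicate 3 (0.0322). Of 20 output genes, Dusp4, Ccnd1 and Phlda1 rose in GNA11/Bap1 KO and Dusp5, Spred1, Etv1, Fosl1, Epha2 and Emp1 in BRAF/Bap1 KO (median -0.83). These counts stand beside 16.5% and 24.7% of all genes. Emp1, a membrane protein, stood at 1341, 723, 818 and 867 CPM in BRAF/Bap1 KO and at 185, 106, 118, 94.4 and 71.7 CPM in GNA11/Bap1 KO (-3.03 ± 0.32 (SE, adjusted p = 0.000265)). Etv1, an ETS factor, was -3.99 ± 0.58 (SE, adjusted p = 0.00105), with 126, 121, 19.9 and 47.3 CPM in BRAF/Bap1 KO. Spred1, a RAS inhibitor, was -1.53 ± 0.33 (SE, adjusted p = 0.00623), and Phlda1 was 2.51 ± 0.42 (SE, adjusted p = 0.00209). Without BRAF/Bap1 KO replicate 1, 7 genes instead of 3 rose in GNA11/Bap1 KO, and without replicates 2 and 4, 1 did.

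AP-1 and YAP target genes passed in both directions, with the larger counts in BRAF/Bap1 KO. Of 20 AP-1 and immediate early genes 8 rose there and 2 in GNA11/Bap1 KO (median -0.90); 5 rose there without GNA11/Bap1 KO replicate 5 or without BRAF/Bap1 KO replicates 2 and 4, and the 2 became 1 without GNA11/Bap1 KO replicate 2 or 5 or BRAF/Bap1 KO replicate 1, 2 or 4. Klf4, a zinc finger factor also of skin epithelium, stood at 182, 73.8, 196 and 161 CPM in BRAF/Bap1 KO and at 25.5, 4.59, 9.63, 24.9 and 10.0 CPM in GNA11/Bap1 KO (-3.36 ± 0.61 (SE, adjusted p = 0.00293)). The AP-1 subunit Fosl2 (-2.21 ± 0.40 (SE, adjusted p = 0.00294)) rose with it, while the small Maf factor Mafk rose in GNA11/Bap1 KO (1.27 ± 0.25 (SE, adjusted p = 0.00435)). Of 28 YAP and TEAD genes 11 rose in BRAF/Bap1 KO, 4 of them consistently, and Yap1 itself, Ptpn14 and Wtip rose in GNA11/Bap1 KO (median -1.13). Rbms3, an RNA-binding protein, stood at 34.2, 38.7, 71 and 65.1 CPM and at 9.34, 5.14, 7.52, 3.05 and 1.56 CPM (-3.30 ± 0.49 (SE, adjusted p = 0.0012)). Tgfb2, a transforming growth factor, was high in replicates 3 and 4, at 6.25, 9.61, 63.1 and 39.4 CPM (-4.20 ± 0.71 (SE, adjusted p = 0.00217)), and Foxf2, a forkhead factor of mesenchyme, in replicates 1 and 2, at 10.5, 6.64, 2.19 and 0.612 CPM (-6.85 ± 1.14 (SE, adjusted p = 0.00203)). Without GNA11/Bap1 KO replicate 2, 7 YAP and TEAD genes rose in BRAF/Bap1 KO, and without BRAF/Bap1 KO replicate 1, 5 rose in GNA11/Bap1 KO.

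Cell cycle genes showed small differences. Mki67, expressed in dividing cells, stood at 195, 47.2, 37.6, 71.5 and 22.9 CPM in GNA11/Bap1 KO and at 61.1, 89.4, 97.7 and 113 CPM in BRAF/Bap1 KO, with overlapping groups (-0.27 ± 0.53 (SE, adjusted p = 0.698)); leaving out GNA11/Bap1 KO replicate 1, its highest library, gave an adjusted p of 0.0445. Of 26 proliferation genes 6 rose in GNA11/Bap1 KO, beside 16.5% of all genes, and none passed in the other direction (median 0.43). The 6 became 2 with total counts alone and 1 without BRAF/Bap1 KO replicates 2 and 4. The consistent ones were the replication helicase subunits Mcm2 (132, 217, 63.6, 87.7 and 129 CPM against 26.7, 25.7, 36.8 and 27.7 CPM, 2.11 ± 0.40 (SE, adjusted p = 0.00355)) and Mcm5 (1.57 ± 0.43 (SE, adjusted p = 0.0166)). Cdkn2a, the gene of the cyclin-dependent kinase inhibitor p16, split the BRAF/Bap1 KO libraries. It stood at 0.27, 0.273, 37.1 and 20.7 CPM there and at 12.1, 15.3, 27.8, 9.76 and 11.3 CPM in GNA11/Bap1 KO, a log2 difference of 0.07 ± 1.11 (SE, adjusted p = 0.967). Replicates 1 and 2 were thus below every GNA11/Bap1 KO library, and replicates 3 and 4 above at least 4 of the 5. Among 22 inhibitor and p53 pathway genes 5 rose in BRAF/Bap1 KO and 2 in GNA11/Bap1 KO, shares near or under those of all genes (24.7% and 16.5%). The 5 became 2 without GNA11/Bap1 KO replicate 2 or BRAF/Bap1 KO replicate 2, 3 without GNA11/Bap1 KO replicate 5, BRAF/Bap1 KO replicate 4 or BRAF/Bap1 KO replicates 2 and 4, and 1 with limma voom. The 2 became 0 without BRAF/Bap1 KO replicate 2, replicate 3 or replicates 2 and 4, and 1 without GNA11/Bap1 KO replicate 2, 3 or 5 or BRAF/Bap1 KO replicate 4. Pmaip1, the apoptosis gene NOXA, was high in replicates 1 and 2, at 142, 356, 9.82 and 6.03 CPM (-6.01 ± 1.23 (SE, adjusted p = 0.00488)), and Mdm4, an inhibitor of p53, was -0.96 ± 0.32 (SE, adjusted p = 0.0346). The call of Mdm4 was lost without GNA11/Bap1 KO replicate 2, 4 or 5 (0.0818, 0.0734 and 0.0621) or BRAF/Bap1 KO replicate 2 or 4 (0.079 and 0.0749).

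Genes of the Bap1 and polycomb complexes moved in both directions, with 7 of 29 higher in GNA11/Bap1 KO, 4 higher in BRAF/Bap1 KO and a median of -0.10. Over all genes 16.5% and 24.7% passed in these directions. Rbbp7, a histone-binding subunit, stood at 174, 173, 173, 215 and 224 CPM in GNA11/Bap1 KO and at 121, 87.4, 83.2 and 83.1 CPM in BRAF/Bap1 KO (1.04 ± 0.19 (SE, adjusted p = 0.00337)). Ezh1, a histone H3 lysine methyltransferase, was 0.82 ± 0.18 (SE, adjusted p = 0.00573), and Kdm1b, a histone demethylase, was -1.59 ± 0.41 (SE, adjusted p = 0.0123). The split turned to 1 and 7 with total counts alone, to 4 and 2 without GNA11/Bap1 KO replicate 2 or replicate 5, to 4 and 3 without BRAF/Bap1 KO replicate 2, and to 1 and 2 without BRAF/Bap1 KO replicates 2 and 4. Of 26 Hox genes tested 8 rose in BRAF/Bap1 KO and 2 in GNA11/Bap1 KO, beside 24.7% and 16.5% of all genes. With the 9 libraries of the 2 genotypes fitted alone, 9 Hox genes were tested, of which 4 and 0 rose. Hoxd8 stood at 5.45, 19.9, 9.79 and 22.2 CPM in BRAF/Bap1 KO and 2.33, 2.21, 1.62, 1.67 and 0.951 CPM in GNA11/Bap1 KO (-3.03 ± 0.59 (SE, adjusted p = 0.00382)). Hoxc4 (-4.75 ± 1.06 (SE, adjusted p = 0.00683)), Hoxa4 (-3.25 ± 0.77 (SE, adjusted p = 0.00919)) and Hoxd9 (-2.27 ± 0.69 (SE, adjusted p = 0.0245)) had at most 3.19, 0.45 and 6.08 CPM in BRAF/Bap1 KO. The call of Hoxd9 was lost with 5 single libraries left out (GNA11/Bap1 KO replicates 3, 4 and 5, 0.0518, 0.0511 and 0.0595, and BRAF/Bap1 KO replicates 2 and 4, 0.0565 and 0.0575). Without replicate 2 or without replicate 4 of BRAF/Bap1 KO, 4 Hox genes rose there, and without both, 2; 5 rose there without GNA11/Bap1 KO replicate 2 or 3 and 4 without replicate 5. The 2 that rose in GNA11/Bap1 KO became 0 without GNA11/Bap1 KO replicate 1, 2 or 5 or any BRAF/Bap1 KO library but replicate 1.

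**Figure D4:**
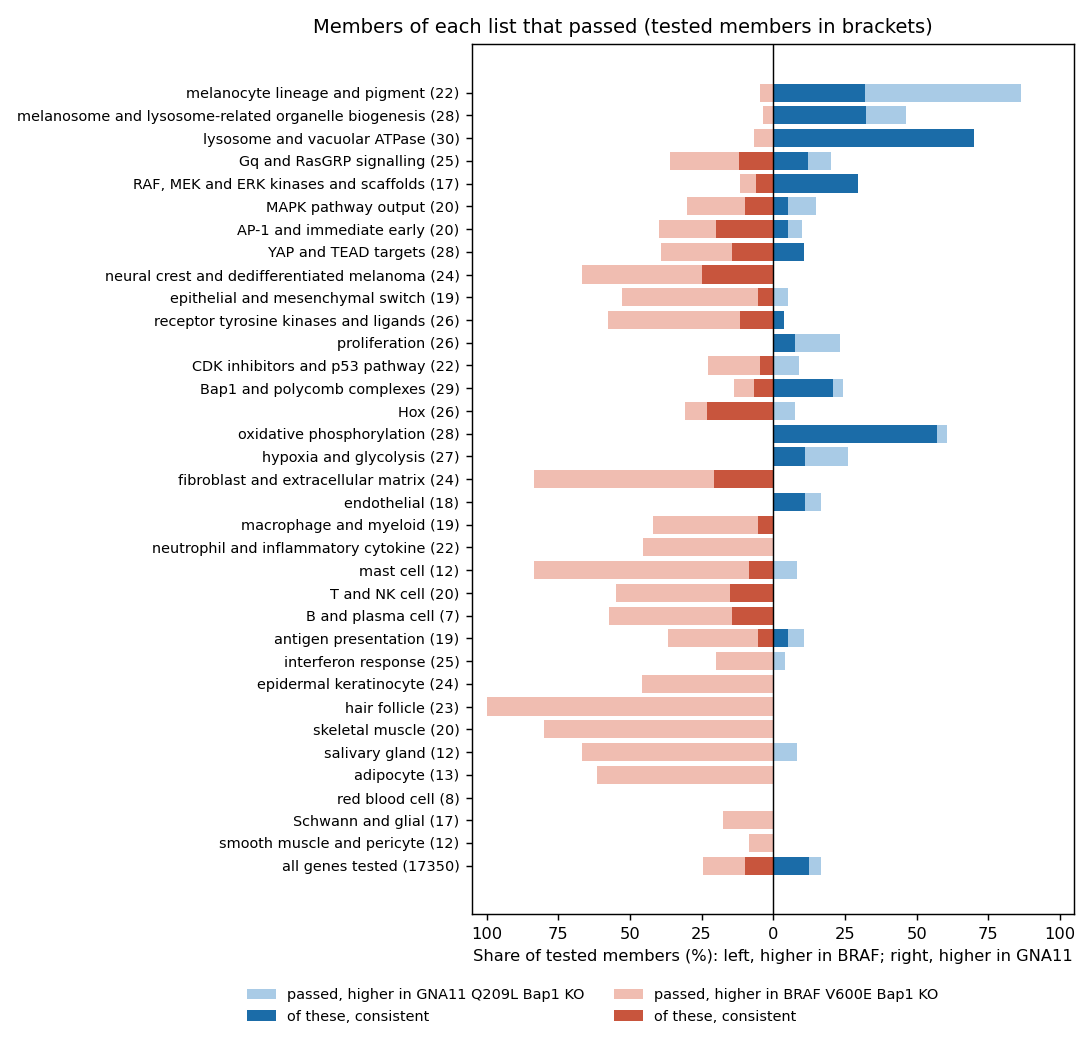
Share of the tested members of each of 34 gene lists (vertical axis, tested members in brackets) that passed, in percent (horizontal axis): to the right higher in GNA11 Q209L Bap1 KO, to the left higher in BRAF V600E Bap1 KO, dark where consistent. The last bar gives all 17350 genes tested (16.5% and 24.7%); the hair follicle, muscle and salivary gland lists have long bars with no consistent member.

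Most mast cell genes were higher in BRAF/Bap1 KO. Cma1, Cpa3 and Mcpt4 were higher in all 4 of its libraries and close to 0 in GNA11/Bap1 KO. Cma1, a mast cell chymase, stood at 64.4, 15.9, 16.1 and 19.1 CPM in BRAF/Bap1 KO and at 0.0543, 0.166, 0.108, 0.143 and 0 CPM in GNA11/Bap1 KO (-8.36 ± 0.91 (SE, adjusted p = 0.000281)). Cpa3, carboxypeptidase A of mast cell granules, stood at 72.8, 12.6, 13.4 and 27.5 CPM and at 0.38, 0.387, 0.162, 0.952 and 0.259 CPM (-6.20 ± 0.80 (SE, adjusted p = 0.000685)), and the protease Mcpt4 at 72.4, 15.4, 13.6 and 29.6 CPM and 0.163, 0.221, 0.108, 0.286 and 0.0173 CPM (-7.75 ± 1.00 (SE, adjusted p = 0.000683)). Replicate 1 was highest for all 3. Of 12 genes of the list 10 rose in BRAF/Bap1 KO, 1 of them consistently. Those near 0 in GNA11/Bap1 KO could enter the test through BRAF/Bap1 KO libraries alone, so their direction was fixed beforehand. With the 9 libraries of the 2 genotypes fitted alone, 10 genes were tested and 9 rose in BRAF/Bap1 KO. Reads of the Mcpt and tryptase families could be split between near-identical copies. The exception was Mrgprb1, a Mas-related receptor, at 998, 538, 829, 1087 and 1430 CPM in GNA11/Bap1 KO and 14.7, 2.73, 5.96 and 5.6 CPM in BRAF/Bap1 KO (7.07 ± 0.73 (SE, adjusted p = 0.000246)). Like Mrgprx2 it belongs to a family of near-identical receptors, and it makes up almost all of the list's summed level in GNA11/Bap1 KO.

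Macrophage and inflammatory genes were higher in BRAF/Bap1 KO, but unevenly. Of 19 macrophage genes 8 rose there, 1 of them consistently, and none passed in the other direction (median -2.01). Without BRAF/Bap1 KO replicates 2 and 4, 4 rose. Cd163, a scavenger receptor of macrophages, stood at 213, 59.8, 5.99 and 96.8 CPM in BRAF/Bap1 KO and at 0.38, 0.221, 0.216, 1.14 and 0 CPM in GNA11/Bap1 KO (-7.96 ± 1.30 (SE, adjusted p = 0.00183)). The mannose receptor Mrc1 was -5.05 ± 0.95 (SE, adjusted p = 0.00336), the endotoxin co-receptor Cd14 -3.77 ± 0.86 (SE, adjusted p = 0.00759) and the chemokine receptor Ccr2 -4.13 ± 0.99 (SE, adjusted p = 0.0097). Of 22 neutrophil and cytokine genes 10 rose, none consistently. Without BRAF/Bap1 KO replicates 2 and 4, 9 rose, 5 of them consistently. Ptgs2, the inducible cyclooxygenase, covered a wide range, at 588, 149, 17 and 1.88 CPM in BRAF/Bap1 KO, and was at 0.111 to 1.09 CPM in GNA11/Bap1 KO (-8.48 ± 1.48 (SE, adjusted p = 0.00248)). The cytokines Il6 (-5.23 ± 0.93 (SE, adjusted p = 0.00269)), Lif (-3.66 ± 0.64 (SE, adjusted p = 0.0025)) and Cxcl1 (-4.06 ± 0.69 (SE, adjusted p = 0.00224)) did not overlap between groups either.

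T cell genes were higher in BRAF/Bap1 KO, with counts that moved with single libraries of both groups. Cd3g, a T cell receptor chain, stood at 1.43, 8.14, 2.33 and 3.1 CPM in BRAF/Bap1 KO and at 0.109, 0.0553, 0.108, 0.286 and 0.795 CPM in GNA11/Bap1 KO (-3.69 ± 0.95 (SE, adjusted p = 0.0124)). The T cell genes Cd3d (-3.37 ± 0.91 (SE, adjusted p = 0.015)) and Cd8b1 (-2.53 ± 0.77 (SE, adjusted p = 0.0249)) were also highest in replicate 2. Of 20 T and NK cell genes 11, 3 of them consistent, rose in BRAF/Bap1 KO. Without GNA11/Bap1 KO replicates 1 to 5, left out singly, 5, 6, 5, 5 and 7 did. The count was 1 without BRAF/Bap1 KO replicate 2, 1 without its replicates 2 and 4, and 4 with limma voom. The call of Cd3d was lost without BRAF/Bap1 KO replicate 2 (0.0548), and that of Cd8b1 without the same library (0.125) and without GNA11/Bap1 KO replicate 1, 2 or 5 (0.0514, 0.0502 and 0.0512). Of 14 B and plasma cell genes 7 could be tested and 4 rose, 2 without BRAF/Bap1 KO replicate 2 or GNA11/Bap1 KO replicate 2, 3 or 5, and 1 without BRAF/Bap1 KO replicates 2 and 4 or with limma voom. Sdc1, a proteoglycan that epithelia also carry, was -2.98 ± 0.44 (SE, adjusted p = 0.00116), and Igj, the immunoglobulin joining chain, was -5.36 ± 1.48 (SE, adjusted p = 0.0167) with 2.46, 202, 5.96 and 19.7 CPM in BRAF/Bap1 KO, and lost the call without replicate 2 (0.0925).

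Antigen presentation and interferon genes passed in both directions. Of 19 antigen presentation genes 7 rose in BRAF/Bap1 KO and 2 in GNA11/Bap1 KO (median -1.01). The 7 became 2, 4, 2, 2 and 1 without GNA11/Bap1 KO replicates 1 to 5, left out singly, 1 and 4 without BRAF/Bap1 KO replicates 2 and 4, left out singly, 0 without both and 2 with limma voom. The 2 became 4 and 1 without BRAF/Bap1 KO replicates 2 and 4, left out singly. Of 25 interferon genes 5 rose in BRAF/Bap1 KO, against 24.7% of all genes, and 1 in GNA11/Bap1 KO, with a median of -0.13 against -0.26 over all genes. With each library left out the counts ran from 0 to 6 in BRAF/Bap1 KO, lowest without BRAF/Bap1 KO replicate 2, and from 0 to 3 in GNA11/Bap1 KO, highest without GNA11/Bap1 KO replicate 5. Without BRAF/Bap1 KO replicates 2 and 4 together, 0 rose in BRAF/Bap1 KO and 1 in GNA11/Bap1 KO. Nlrc5, the activator of class I genes, was -2.14 ± 0.57 (SE, adjusted p = 0.014), the peptidase Erap1 -1.01 ± 0.33 (SE, adjusted p = 0.0321), Irf1 -1.41 ± 0.42 (SE, adjusted p = 0.0228) and the nucleic acid sensor Zbp1 -2.91 ± 0.88 (SE, adjusted p = 0.0235). Without BRAF/Bap1 KO replicate 2 the calls of Erap1 (0.0949), Irf1 (0.0604) and Zbp1 (0.0981) were lost. Those of Erap1 and Irf1 were also lost without single GNA11/Bap1 KO libraries, Erap1 without replicate 1, 2 or 5 (0.0562, 0.0663 and 0.0712) and Irf1 without replicate 3, 4 or 5 (0.0502, 0.0539 and 0.0597). The chaperone Calr rose instead in GNA11/Bap1 KO, with 1473, 1805, 2129, 1504 and 2234 CPM against 658, 332, 452 and 545 CPM (1.88 ± 0.31 (SE, adjusted p = 0.00181)).

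Few endothelial genes passed: 3 of 18 were higher in GNA11/Bap1 KO, a share near the 16.5% of all genes, and none was higher in BRAF/Bap1 KO (median 0.79). Vwf, the von Willebrand factor, stood at 154, 143, 120.0, 116 and 139 CPM in GNA11/Bap1 KO and at 33.3, 20.6, 35.5 and 31.2 CPM in BRAF/Bap1 KO (2.16 ± 0.21 (SE, adjusted p = 0.000193)). Eng, a co-receptor of transforming growth factor beta, was 2.16 ± 0.53 (SE, adjusted p = 0.0106), with 55.4, 93.6, 285 and 250.5 CPM in BRAF/Bap1 KO, and the secreted Egfl7 was 0.98 ± 0.28 (SE, adjusted p = 0.019). With DESeq2 or limma voom 8 genes of the list rose, without BRAF/Bap1 KO replicate 3, 5 did, and without BRAF/Bap1 KO replicates 2 and 4, 1 did.

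Genes of normal skin, muscle and salivary gland were high in single BRAF/Bap1 KO libraries. The 23 hair follicle genes summed to 30.2, 35.2, 320.0 and 12740 CPM in BRAF/Bap1 KO replicates 1 to 4 and to 2.65 to 14.6 CPM in GNA11/Bap1 KO. The 24 keratinocyte genes summed to 279, 651, 20110 and 8513 CPM and, in GNA11/Bap1 KO, to 2999, 20.1, 14.8, 10.4 and 9.63 CPM, so that replicate 1 of that group held them too. The 20 muscle genes summed to 155, 459, 61.1 and 9373 CPM and to 22.3 to 262 CPM. All 23 hair follicle genes, 11 keratinocyte genes and 16 muscle genes passed higher in BRAF/Bap1 KO, and none was consistent. Genes near 0 in GNA11/Bap1 KO could enter the test through BRAF/Bap1 KO libraries alone, so their direction was fixed beforehand. With the 9 libraries of the 2 genotypes fitted alone, only 4 hair follicle genes were tested, and 4 passed. Of the hair follicle genes 4 passed with DESeq2 and 4 with limma voom. Without BRAF/Bap1 KO replicate 3 or replicate 4, 11 of them were still tested, of which 11 and 9 passed, 2 of the latter consistently. Without BRAF/Bap1 KO replicates 2 and 4, 8 of 9 passed, 6 of them consistently. Of the muscle genes 8 passed with DESeq2, 1 with limma voom, 7 without GNA11/Bap1 KO replicate 1, 2, 4 or 5, 2 without BRAF/Bap1 KO replicate 4 and 0 without replicates 2 and 4. Of the keratinocyte genes 23 passed without GNA11/Bap1 KO replicate 1, 7 without its replicate 2, 6 without BRAF/Bap1 KO replicates 2 and 4, and 18 with limma voom.

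Single genes show the same unevenness. Krt15, a basal keratin, stood at 1.85, 9.34, 63.5 and 429 CPM in BRAF/Bap1 KO (-8.94 ± 1.72 (SE, adjusted p = 0.00376)), and Ivl, a protein of the cornified envelope, at 2.8, 3, 46.7 and 70.1 CPM (-8.42 ± 1.64 (SE, adjusted p = 0.00455)). Flg, filaggrin, was highest in replicate 3, at 1.98, 5.52, 148 and 23.1 CPM (-7.28 ± 1.73 (SE, adjusted p = 0.00912)). The table has several rows of this symbol, between which reads could be split, and the one with the highest level is given. In the hair follicle list the keratin Krt79 stood at 3.94, 18.9, 144 and 316 CPM (-8.33 ± 1.56 (SE, adjusted p = 0.00337)), S100a3 at 5.98, 4.43, 11.7 and 288 CPM (-8.69 ± 1.67 (SE, adjusted p = 0.00377)) and the homeobox factor Dlx3 at 0.337, 0.341, 6.41 and 134 CPM (-8.68 ± 1.87 (SE, adjusted p = 0.00597)). Lgr5, a stem cell receptor of the follicle, was less uneven, at 1.73, 6.58, 4.53 and 23.5 CPM (-3.93 ± 0.73 (SE, adjusted p = 0.0033)). Keratin families hold near-identical copies, whose reads could be split. Plin4, a coat protein of fat droplets, stood at 2.06, 20.3, 2.44 and 80.2 CPM (-5.56 ± 1.23 (SE, adjusted p = 0.00672)), and 8 of 13 adipocyte genes passed. With each library left out the adipocyte count ran from 2 to 8, with 2, 3, 2, 4 and 2 without GNA11/Bap1 KO replicates 1 to 5 and 4 and 2 without BRAF/Bap1 KO replicates 2 and 4, and it was 0 without both of the last and 0 with limma voom. With the 9 libraries of the 2 genotypes fitted alone, 6 adipocyte genes were tested and 1 passed.

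Salivary gland genes stood out in replicate 4 of BRAF/Bap1 KO. The 12 genes tested summed to 156.6, 133.5, 212.1 and 188700 CPM in BRAF/Bap1 KO replicates 1 to 4. In GNA11/Bap1 KO they summed to 3716, 6775, 789.5, 5347 and 4641 CPM, above BRAF/Bap1 KO replicates 1 to 3. Bpifa2, a secreted salivary protein, stood at 0, 0, 0 and 98000 CPM in BRAF/Bap1 KO and at 0.597, 0, 0.974, 0.0476 and 0.138 CPM in GNA11/Bap1 KO. The log2 fold change of -16.13 ± 4.83 (SE, adjusted p = 0.0227) did not hold without BRAF/Bap1 KO replicate 4 (adjusted p = 0.0707), as Bpifa2 had no count in the other 3 of that group. Amy1, salivary amylase, which shares reads with near-identical amylase copies, stood at 3.42, 4.5, 9.82 and 34900 CPM (-12.41 ± 3.03 (SE, adjusted p = 0.0103); 0.0713 without replicate 4). Klk1, a kallikrein, stood at 0.0112, 0.17, 0.104 and 300.5 CPM (-8.24 ± 2.50 (SE, adjusted p = 0.0239)). Chia, a chitinase, had 1 count in all of GNA11/Bap1 KO and 0, 0, 0 and 9828 CPM in BRAF/Bap1 KO, a ratio to that count's level of 328900 (95% Poisson interval 59030 to 12990000). Pip and Abpa had no count in GNA11/Bap1 KO. Against 3 counts pooled over that group, Pip was at least 50060-fold higher in the mean of BRAF/Bap1 KO (0, 0.0341, 0 and 4489 CPM) and Abpa at least 10740-fold higher (0, 0, 0.836 and 962 CPM). All 6 of these means rest on replicate 4. Of 22 listed genes 12 could be tested, and 8 passed higher in BRAF/Bap1 KO, 2 without BRAF/Bap1 KO replicate 4, 4, 5 and 4 without GNA11/Bap1 KO replicates 2, 3 and 5, left out singly, and 2 with DESeq2 or limma voom. With the 9 libraries of the 2 genotypes fitted alone, 6 could be tested and 3 passed higher in BRAF/Bap1 KO. Without BRAF/Bap1 KO replicates 2 and 4 together, 7 could be tested. Of these, 2 passed higher in BRAF/Bap1 KO and 3 in GNA11/Bap1 KO. The calls of Pip and Abpa were lost whichever GNA11/Bap1 KO library was left out, those of Bpifa2 without replicate 2 (0.0558) or 5 (0.0558), of Klk1 without replicate 2 (0.057), 4 (0.0504) or 5 (0.0576) and of Chia without replicate 4 (0.0737). Aqp5, a water channel of secretory glands, was raised in replicates 1 and 4, at 45.7, 1.26, 8.01 and 48.7 CPM (-6.21 ± 1.23 (SE, adjusted p = 0.00418)), and the ion transporter Slc12a2 was -1.77 ± 0.44 (SE, adjusted p = 0.011). Tcn2, a vitamin B12 carrier, rose in GNA11/Bap1 KO instead, with 586, 1342, 670.5, 581 and 816 CPM against 53.8, 52, 90.2 and 216 CPM (2.96 ± 0.51 (SE, adjusted p = 0.00231)).

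**Figure D5:**
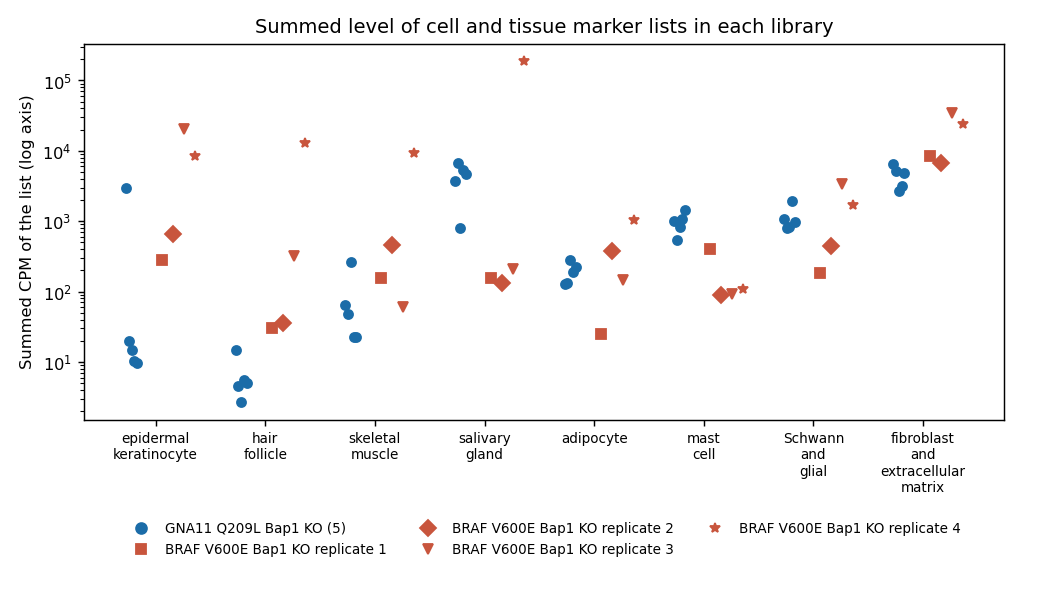
Summed CPM (vertical axis, log scale) of 8 marker lists of other cells and tissues (horizontal axis) in each library: circles for the 5 GNA11 Q209L Bap1 KO libraries, 4 other symbols for BRAF V600E Bap1 KO replicates 1 to 4. The salivary gland, hair follicle, skeletal muscle and adipocyte lists are highest in BRAF V600E Bap1 KO replicate 4, and the keratinocyte, Schwann and fibroblast lists in replicate 3.

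The BRAF/Bap1 KO libraries thus came in 2 pairs for several genes. Replicates 1 and 2 were the higher pair for Prrx1, Twist1, Pdgfra, Fgfr1, Ddr2, Pmaip1 and Ptgs2, and replicates 3 and 4 for Sox10, Cdkn2a, Tgfb2 and Egfr, by the values given above. Replicates 3 and 4 were also the higher pair for the summed keratinocyte list and for the Schwann and glial list (184, 439, 3405 and 1677 CPM in replicates 1 to 4, 801 to 1919 CPM in GNA11/Bap1 KO). Of 17 Schwann and glial genes 3 passed higher in BRAF/Bap1 KO, a share under the 24.7% of all genes. Without GNA11/Bap1 KO replicate 4 or 5 or with limma voom, 1 did. Among the 3 was Mal, a myelin protein, at 2.39, 2.49, 78.5 and 7.21 CPM (-6.34 ± 1.52 (SE, adjusted p = 0.00951)). The smooth muscle and pericyte list had 1 of 12 genes that passed, Synpo2 (-3.66 ± 0.92 (SE, adjusted p = 0.0114)), and of 12 red blood cell genes 8 were tested and none passed. This pairing was seen in the values and was not tested, and it does not follow the NA entries of the header, which belong to replicates 2 and 4.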

How the data were processed

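RNA sequencing libraries had been made from total RNA with an Illumina protocol, per the labels' protocols. The authors deposited 1 table of expected counts per gene. The submitters' processing notes name STAR and the build mm9. The aligner's version, how reads were counted, the annotation and the strand setting are not given in the sources used, so reads of overlapping genes on opposite strands cannot be separated. All deposited values were whole numbers, so rounding changed nothing. From 18769 lines, 6 transgene rows and 7 repeated identical IDs were dropped, which left 18756 genes; 21 symbols turned into dates were restored from their IDs.

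Genes were tested by the quasi-likelihood method of edgeR (version 4.0.16, in R 4.3.3) after TMM scaling and filterByExpr, on all 11 libraries by genotype, so that the 3 genotypes share 1 estimate of the spread. Two-sided p-values were adjusted by Benjamini-Hochberg over 17350 genes, with 0.05 as the threshold. Standard errors were derived from F statistics. Unstated p-values in parentheses are adjusted p-values from this test, or from its repeat under the named setting. CPM values are TMM-scaled, and spread and gap use an offset of 0.5 CPM. Intervals and floors cover counting error only. The script was tested on simulated counts.

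Named genes: up to 15 in each direction, by gap, among consistent genes whose average log2 CPM reached 2, with a spread of at most 4 also in GNA11 Q209L Bap1 KO for genes higher there, leaving out predicted genes, Xist, Y-linked genes, other-tissue lists and, on the GNA11 side, melanocyte genes; 12 key genes; up to 4 members per list with the smallest p among those that passed without overlap; and 6 genes carried by 1 library. Of the genes this rule names, 3 are not reported here. The 34 lists hold 761 entries, of which 746 matched. Some genes are in more than 1 list, among them 8 of the neural crest list and 7 of the receptor list. Counts of such lists are therefore not independent. The members and lists were chosen with earlier results of these data known, so lists are described by counts and medians, with no set test. Alternatives covered scaling, filter, DESeq2 1.42.0, limma 3.58.1 (voom), the libraries fitted, the Xist level, the size of change and each library left out. Leaving out BRAF V600E Bap1 KO replicates 2 and 4 together was added after the header lines were seen. The sources used here give no batch.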

Additional observations from a re-analysis of the deposited data

Results flagged for a closer look

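In each group of named genes the library farthest from the others was compared with Dixon's 95% critical value. Over 145 genes and 290 groups, 25 groups had such a library, and chance gives about 1 in 20. BRAF V600E Bap1 KO replicate 4 had 6 of them, all high: Amy1 (34900 CPM), Chia (9828 CPM), Bpifa2 (98000 CPM), Pip (4489 CPM), Abpa (962 CPM) and Klk1 (300.5 CPM), which were named because 1 library carries them. Replicate 1 of that genotype stood high for Cma1 (64.4 CPM), Ap3d1 (191 CPM) and Rbbp7 (121 CPM) and low for Cox5b (18.7 CPM). Replicate 2 stood high for Cd3d (7.57 CPM) and Cd8b1 (5.59 CPM). Replicate 3 stood low for Ppm1h (9.02 CPM) and high for Cdh11 (147 CPM).

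In GNA11 Q209L Bap1 KO, replicate 1 stood high for the skin genes Ivl (0.434 CPM), Flg (1.36 CPM) and S100a3 (0.76 CPM) and low for Cd8b1 (0.109 CPM), all levels of few counts. Replicate 5 stood low for Rasgrp1 (0.242 CPM), Ccr2 (0.363 CPM) and Zbp1 (0.242 CPM). Replicate 2 stood low for Rasa1 (11.7 CPM), replicate 3 high for Plin4 (1.46 CPM), and replicate 4 low for Snai1 (1.05 CPM). Replicate 4 also held the single count of Chia (0.0476 CPM).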

How the results depend on the processing

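The number of genes higher in GNA11 Q209L Bap1 KO (2865) became 1746 with total counts alone, 913 when tested against a log2 change of 1 and 1372 without BRAF V600E Bap1 KO replicates 2 and 4; leaving out each library in turn gave 2353 to 3028. The number higher in BRAF V600E Bap1 KO (4281) became 2191 and 2199 under the last 2 of these settings, and 3095 to 4250 with each library left out. Consistent genes higher in GNA11 Q209L Bap1 KO (2134) became 1224 with total counts alone and 1301 without replicates 2 and 4, and 1936 to 2630 with each library left out. Those higher in BRAF V600E Bap1 KO (1713) became 851 with a spread limit of 2, and 1381 to 2129 with each library left out. A stricter limit lowers these counts by construction. Fewer libraries lowered some counts and raised others, as the ranges above show. For fewer libraries and for total counts alone the cause was not tested. DESeq2 called 8098 genes and limma voom 6103, against 7146. With GNA11 Q209L Bap1 KO replicates 1 and 2 summed as 1 library, 6133 of 17401 genes passed, 2673 higher in this genotype. List counts higher in BRAF V600E Bap1 KO then fell for antigen presentation (7 to 2), YAP and TEAD (11 to 7) and T and NK cells (11 to 7). Those of muscle (16 to 7), salivary gland (8 to 4) and adipocytes (8 to 3) fell too. Lysosome genes higher in GNA11 Q209L Bap1 KO numbered 20 instead of 21.

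For the 145 named genes, 2611 of 2724 alternative values kept direction and side of the threshold, 106 lost the threshold, 5 passed it and 2 reversed, both of Bpifa2, whose log2 fold change ran from -16.86 to 6.56 (without BRAF V600E Bap1 KO replicate 4) with each library left out and was 6.58 without replicates 2 and 4, where replicate 4 holds nearly all its counts. List medians moved by more than the spread between replicates in 88 of 646 cases. The medians of RAF, MEK and ERK genes (0.05), inhibitor and p53 pathway genes (0.10) and Bap1 and polycomb genes (-0.10) lie close to 0; total counts alone turned the first 2 to -0.32 and -0.28, and leaving out GNA11 Q209L Bap1 KO replicate 4 turned the last to 0.09. That of the salivary gland genes turned from -10.32 to 2.20 without BRAF V600E Bap1 KO replicate 4, and that of the adipocyte genes from -5.56 to 0.50 without replicates 2 and 4.

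No paired analysis was possible because the replicate numbers only follow the order of deposit and the labels tie no library of a genotype to one of another. The 4 BRAF V600E Bap1 KO libraries, 2 of them with an NA entry for Bap1, limit every result of the comparison.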
